A study of Homo sapiens with 4 samples.

Results

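The genes described here are 10 early response and feedback genes of the ERK pathway: EGR1, EGR2, DUSP1, DUSP2, DUSP4, DUSP5, DUSP6, SPRY2, IER2 and IER3. They were chosen by name and found through their Ensembl IDs among the 78932 gene rows of the deposited count table, and all 10 had a row. ERK is the last kinase of the RAS, RAF, MEK and ERK cascade, which carries growth factor and stress signals to the nucleus. Active ERK switches on immediate early genes, whose transcripts appear without new protein synthesis and decay fast, and among them are genes whose products turn the cascade off again. The EGR genes encode zinc finger transcription factors, the DUSP genes encode phosphatases that remove phosphate from ERK and related kinases, SPRY2 encodes an inhibitor upstream of RAF, and IER2 and IER3 encode small early response proteins. In multiple myeloma the pathway is often active.

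RPMI 8226 is an established human multiple myeloma cell line. Cells were transfected with a locked nucleic acid (LNA) antisense oligonucleotide, a short modified DNA strand that lowers the RNA it is complementary to, and RNA was sequenced 72 h later. The groups were LINC01432 LNA (2 libraries, 50 nM), aimed at the long noncoding RNA LINC01432, and control LNA (2 libraries). All libraries came from 1 cell line, each group had 1 oligonucleotide, no untransfected cells were analysed here, and no label states that libraries were made from different cultures. The dose is given for LINC01432 LNA only. The p-values therefore rest on library-to-library spread that could be purely technical, and a response at 72 h says nothing of the first hours in which early response genes usually peak.

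The libraries held 20873393 and 26185342 gene counts with LINC01432 LNA, against 29161298 and 24493148 with control LNA. LINC01432 itself had 193 and 250 counts with LINC01432 LNA and 598 and 440 with control LNA. Its log2 fold change was -1.02, standard error (SE) 0.11 (edgeR adjusted p = 0.000228). Chi-square per degree of freedom, 1 for pure counting error, was 12.2 between the LINC01432 LNA libraries and 3.79 between the controls. The defining plasma cell genes IRF4, XBP1, PRDM1 and SDC1 averaged 788, 344, 175 and 409 CPM (counts scaled to library size) with LINC01432 LNA and 779, 440, 202 and 450 CPM with control LNA. Of the 9 plasma cell markers 8 were tested: CD38 was called higher, TNFRSF17 and XBP1 lower (edgeR adjusted p = 0.000434, 0.00158 and 0.0158), and after either GC correction given below SDC1 was called lower as well. The 9 plasma cell markers summed to 2628 and 2980 CPM with LINC01432 LNA and to 3025 and 3211 CPM with control LNA. Markers of other cell types summed to less: T and NK cell markers to 0.653 and 0.832 CPM against 0.653 and 0.571 CPM, and myeloid markers to 4.24 and 5.43 CPM against 3.43 and 3.59 CPM, with LYZ and S100A8 at 0 in all 4 libraries. Fibroblast and endothelial markers summed to 6.06 and 7.29 CPM against 4.22 and 4.36 CPM, and of their 6 genes COL1A1 was called higher, but not after either GC correction (edgeR adjusted p = 0.0792 and 0.0651). Epithelial markers summed to 99.8 and 99.2 CPM against 118 and 114 CPM, nearly all of it EPCAM and KRT18. Of the 5 epithelial markers 3 were tested, all 3 with both LINC01432 LNA libraries below both controls, and 0 were called. After either GC correction 2 of them were called lower. The part of these marker differences in the results was not tested.

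Promoter sequence is shown for EGR1 and IER2, the members that passed the test, because early response genes are classically read through serum response elements and cyclic AMP response elements (CRE) close to their start. Each line gives the 250 bases before the start of the RefSeq transcript, 5′ to 3′ on the plus strand of GRCh38.p14, at chr5:138465229-138465478 for EGR1 and chr19:13150161-13150410 for IER2. Capitals mark matches to the CArG box (the core of the serum response element), to the CRE half-site TGACG and to the ETS site CCGGAA, on either strand.
EGR1: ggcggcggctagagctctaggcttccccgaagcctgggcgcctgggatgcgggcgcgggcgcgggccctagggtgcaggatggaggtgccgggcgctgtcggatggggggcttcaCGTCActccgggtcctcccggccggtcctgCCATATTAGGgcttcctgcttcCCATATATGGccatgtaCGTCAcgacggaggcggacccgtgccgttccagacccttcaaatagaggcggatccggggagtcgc
IER2: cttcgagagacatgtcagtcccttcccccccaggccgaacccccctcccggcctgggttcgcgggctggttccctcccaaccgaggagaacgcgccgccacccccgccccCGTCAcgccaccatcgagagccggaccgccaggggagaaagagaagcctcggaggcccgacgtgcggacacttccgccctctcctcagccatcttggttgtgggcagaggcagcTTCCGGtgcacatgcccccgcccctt
The EGR1 window held 2 CArG boxes, which begin 105 and 83 bases before the start, and 2 CRE half-sites, 135 and 66 bases before it, read here as CGTCA. The IER2 window held 1 CRE half-site 140 bases before the start and 1 ETS site 26 bases before it, and no CArG box. Of 35116 such windows in the RefSeq table, 1.16% held a CArG box, 21.2% a CRE half-site and 14.5% an ETS site. Of the 7 members with a window in the table (11 windows, since EGR2 and SPRY2 have several), EGR1 and EGR2 held a CArG box and 5 held a CRE half-site, EGR1, EGR2, DUSP1, SPRY2 and IER2. DUSP1 held 4 half-sites, and a pair of them overlap to form the full CRE TGACGTCA, which 1.65% of all windows hold. The EGR site GCGNGGGCG was found in the windows of EGR1, DUSP2 and SPRY2, against 8.41% of all windows. The AP-1 site TGANTCA, the interferon-stimulated response element TTTCNNTTTC and the NF-kB site were in none of the members' windows, against 6.57%, 3.02% and 5.21% of all. Members are counted here by any of their windows, while the shares given are per window. For EGR2 and SPRY2 a single window held all their matches, and their other windows held no motif searched. All motifs were searched on both strands, and a match or its absence describes the letters of the window only.

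Of the 10 members, 8 passed the filter on low counts and were tested. EGR1 and IER2 were higher with LINC01432 LNA, 0 members were lower and 6 did not pass. Over all 18680 genes tested, 11.9% changed at an edgeR adjusted p under 0.05, with 7.5% higher and 4.37% lower. The median log2 fold change was 0.24 over the 8 members tested and 0.01 over all genes tested. The libraries of the 2 groups did not overlap for 7 of the 8, 6 with LINC01432 LNA above control LNA and 1 below, where 54.1% of all genes tested had groups that do not overlap, 28.2% above and 25.9% below. The number of members called was 4 without either LINC01432 LNA library and 1 without control library 1. The number of all genes called was 5228 and 4328 without LINC01432 LNA library 1 and 2, and 766 and 1085 without control library 1 and 2, against 2218 with all libraries. For 1 gene measured in these 4 libraries, the smallest two-sided p of an exact permutation test is 0.333, so each call rests on the spread that edgeR shares across genes.

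**Figure D1:**
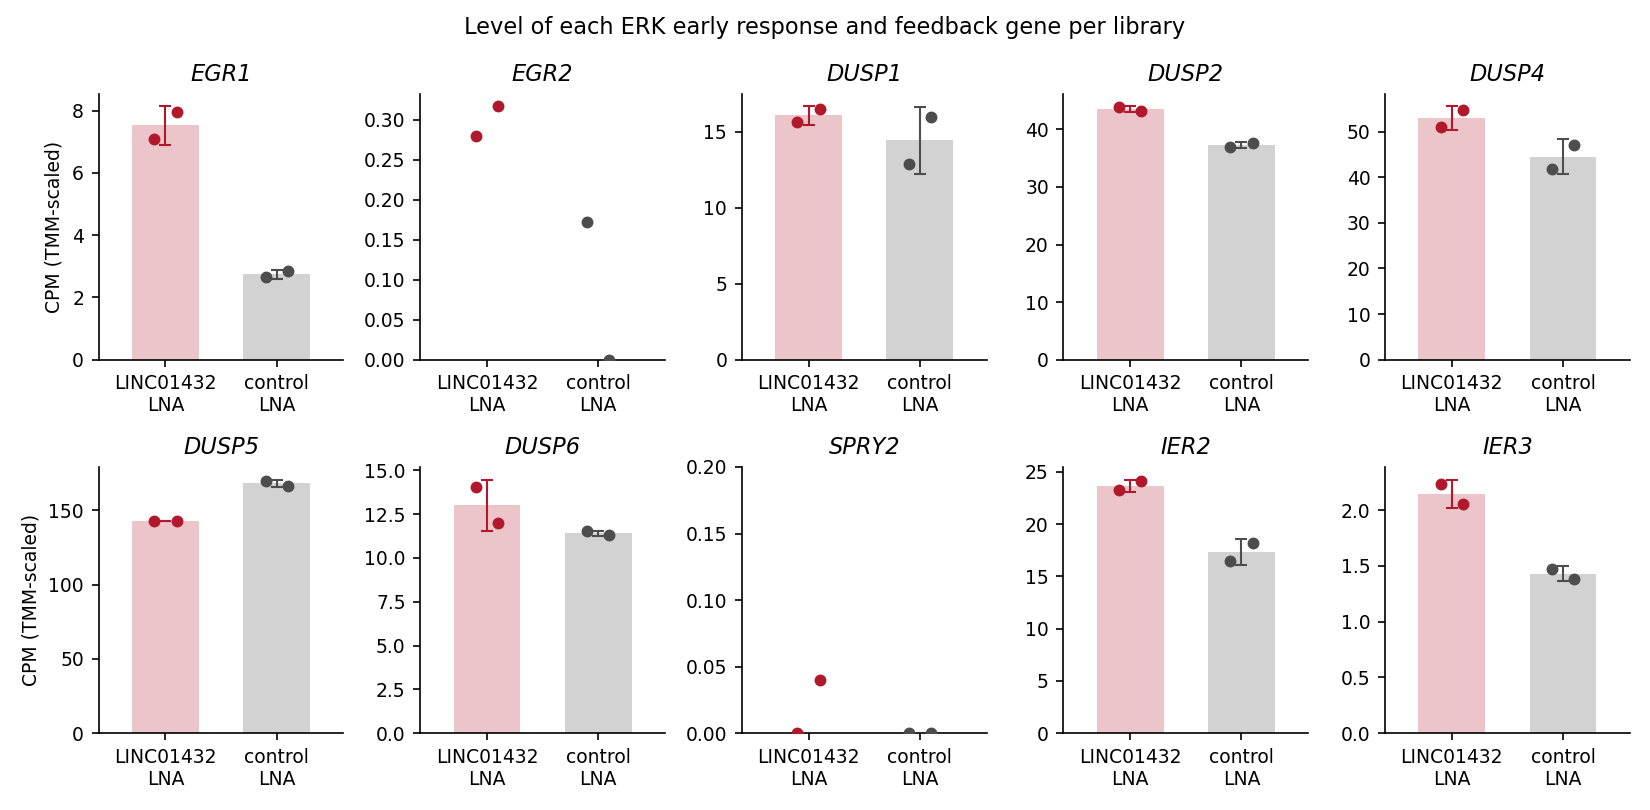
Level of each of the 10 genes in TMM-scaled CPM, 1 panel per gene with its own axis from 0; dots are libraries (LINC01432 LNA left, control LNA right), and for the 8 genes tested bars are means and error bars the SD of 2 libraries. EGR1 stands apart, at 7.09 and 7.96 CPM with LINC01432 LNA against 2.64 and 2.85 CPM with control LNA, while DUSP5 lies lower with LINC01432 LNA.

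EGR1 (ENSG00000120738, a protein-coding gene on the plus strand of chromosome 5 from 138465490 to 138469315 in GENCODE 29) encodes the zinc finger factor that is the standard readout of ERK and serum response factor activity. It had 152 and 201 counts with LINC01432 LNA and 77 and 70 counts with control LNA. Scaled to library size this was 7.09 and 7.96 CPM with LINC01432 LNA, against 2.64 and 2.85 CPM with control LNA. The lowest LINC01432 LNA library thus lay well above the highest control library, and the libraries of each group lay close together. EGR1 rose 2.75-fold, with means of 7.52 ± 0.621 CPM with LINC01432 LNA and 2.75 ± 0.147 CPM with control LNA (SD, n = 2 each). The log2 fold change was 1.46 with an SE of 0.16 (edgeR adjusted p = 0.000223), higher than that of 98.8% of the genes tested. In bulk RNA, more cells that express EGR1 and more EGR1 RNA per cell cannot be told apart, nor, for a gene that is lower, fewer such cells and less RNA per cell. No exon of EGR1 overlaps another gene in GENCODE 29.

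EGR2 (ENSG00000122877, chromosome 10), a relative of EGR1 that is known for its part in myelin formation and in lymphocytes, was near the limit of detection. It had 6 and 8 counts with LINC01432 LNA and 5 and 0 counts with control LNA, or 0.280 and 0.317 CPM against 0.172 and 0 CPM. Both LINC01432 LNA libraries lay above both control libraries, but EGR2 did not pass the filter and no fold change is given. The detection floor used here, 3 counts, came to between 0.103 and 0.144 CPM on library totals without TMM scaling. The same holds for SPRY2 (ENSG00000136158, chromosome 13), the Sprouty inhibitor of receptor signalling to RAS and RAF, which had 0 and 1 counts with LINC01432 LNA and 0 in both control LNA libraries. At this depth SPRY2 was at or under the floor in all 4 libraries, and a difference was not detectable.

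None of the 5 DUSP genes passed the test with all 4 libraries. DUSP5 (ENSG00000138166, chromosome 10), a nuclear phosphatase specific for ERK, had 143 CPM in both LINC01432 LNA libraries, against 170 and 166 CPM in the control LNA libraries. It is the 1 member for which both LINC01432 LNA libraries lay below both controls. Its means were 143 ± 0.0252 CPM with LINC01432 LNA and 168 ± 2.41 CPM with control LNA (SD, n = 2), with a log2 fold change of -0.23 (SE 0.08), which did not pass (edgeR adjusted p = 0.0706). It was called lower without LINC01432 LNA library 1 (-0.25, edgeR adjusted p = 0.000107) and without LINC01432 LNA library 2 (-0.25, edgeR adjusted p = 8.85e-05), in fits where the lone library is assumed to vary like the control pair. It was not called without control library 1 (-0.24, edgeR adjusted p = 0.635) or control library 2 (-0.26, edgeR adjusted p = 0.560). DUSP5 also passed after both corrections for GC content given below.

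DUSP6 (ENSG00000139318, chromosome 12), the cytoplasmic phosphatase specific for ERK, had 14.0 and 12.0 CPM with LINC01432 LNA and 11.5 and 11.3 CPM with control LNA. The groups did not overlap but lay close, and the log2 fold change of 0.19 (SE 0.12) did not pass (edgeR adjusted p = 0.357). In GENCODE 29, 40.5% of its exonic bases overlap a gene on the other strand (ENSG00000274021), which had 8 and 5 counts with LINC01432 LNA and 9 and 3 with control LNA, so few reads were assigned to that partner. Of the exonic bases of that partner itself, 83.1% overlap other genes. The strand setting of the counting is not given in the sources used here. The low count of the partner therefore does not show that it was little expressed.

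DUSP1, DUSP2 and DUSP4 encode nuclear phosphatases that act on ERK and also on the stress kinases p38 or JNK. DUSP4 (ENSG00000120875, chromosome 8) had 51.1 and 54.8 CPM with LINC01432 LNA and 41.7 and 47.2 CPM with control LNA, a log2 fold change of 0.25 (SE 0.09, edgeR adjusted p = 0.0929). DUSP2 (ENSG00000158050, chromosome 2), best known in activated lymphocytes, had 43.9 and 43.1 CPM with LINC01432 LNA and 36.9 and 37.6 CPM with control LNA, a log2 fold change of 0.22 (SE 0.08, edgeR adjusted p = 0.0999). For both genes the LINC01432 LNA libraries lay above the controls without passing the test. When a single library was left out, DUSP4 was called only without LINC01432 LNA library 1 (0.29), and DUSP2 only without LINC01432 LNA library 2 (0.22). In those fits the lone library is assumed to vary like the control pair. DUSP4 had 0.19 without LINC01432 LNA library 2, and 0.15 and 0.33 without control library 1 and 2. DUSP2 had 0.19 without LINC01432 LNA library 1, and 0.19 and 0.22 without control library 1 and 2. DUSP1 (ENSG00000120129, chromosome 5), the classical immediate early phosphatase, had 15.7 and 16.5 CPM with LINC01432 LNA and 12.9 and 16.0 CPM with control LNA. Here the groups overlapped, since the control libraries differed by a factor of 1.24, and the log2 fold change of 0.16 (SE 0.12) did not pass (edgeR adjusted p = 0.447).

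IER2 (ENSG00000160888, plus strand of chromosome 19 from 13150415 to 13154908), a nuclear early response protein, had 499 and 608 counts with LINC01432 LNA and 480 and 447 counts with control LNA. Its level was 23.3 and 24.1 CPM with LINC01432 LNA, against 16.5 and 18.2 CPM with control LNA, with no overlap between the groups. IER2 rose 1.37-fold, with means of 23.7 ± 0.584 CPM with LINC01432 LNA and 17.4 ± 1.23 CPM with control LNA (SD, n = 2 each) and a log2 fold change of 0.45 (SE 0.09, edgeR adjusted p = 0.0101). Without control library 1 the log2 fold change was 0.36 and was not called (edgeR adjusted p = 0.295). Of its exonic bases 30.8% overlap ENSG00000267598 on the other strand, which was listed at 0 in all 4 libraries. Of the exonic bases of ENSG00000267598 itself, 100% overlap other genes. With the strand setting not given, its count does not show whether it was expressed.

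IER3 (ENSG00000137331, minus strand of chromosome 6), an early gene of ERK and NF-kB signalling known as a regulator of cell death, was low. It had 48 and 52 counts with LINC01432 LNA and 43 and 34 counts with control LNA, or 2.24 and 2.06 CPM against 1.48 and 1.39 CPM. The groups did not overlap, yet the log2 fold change of 0.58 (SE 0.24) did not pass (edgeR adjusted p = 0.160). Its estimate lay above that of IER2, with a wider SE at far fewer counts. Of its exonic bases 26.5% overlap IER3-AS1, which had 0 and 2 counts with LINC01432 LNA and 2 and 0 with control LNA. Of the exonic bases of IER3-AS1 itself, 68.1% overlap other genes, so the limit given for the partner of IER2 holds here too.

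Levels between genes were compared per kilobase of exon. With LINC01432 LNA the order by mean level was DUSP5 at 54.7, DUSP2 at 22.5, DUSP1 at 7.97, IER2 at 7.71, DUSP4 at 7.30, DUSP6 at 2.81, EGR1 at 2.40, IER3 at 1.58, EGR2 at 0.0809 and SPRY2 at 0.00652 CPM per kilobase. With control LNA it was DUSP5 at 64.3, DUSP2 at 19.3, DUSP1 at 7.16, DUSP4 at 6.12, IER2 at 5.65, DUSP6 at 2.46, IER3 at 1.06, EGR1 at 0.876, EGR2 at 0.0233 and SPRY2 at 0 CPM per kilobase. DUSP5 and DUSP2 thus led in both groups. EGR1 stood above IER3 with LINC01432 LNA and below it with control LNA, in both libraries of each group. Neighbours in the order overlapped for DUSP1 and IER2 with LINC01432 LNA, and for DUSP1 and DUSP4, DUSP4 and IER2, and EGR2 and SPRY2 with control LNA.

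**Figure D2:**
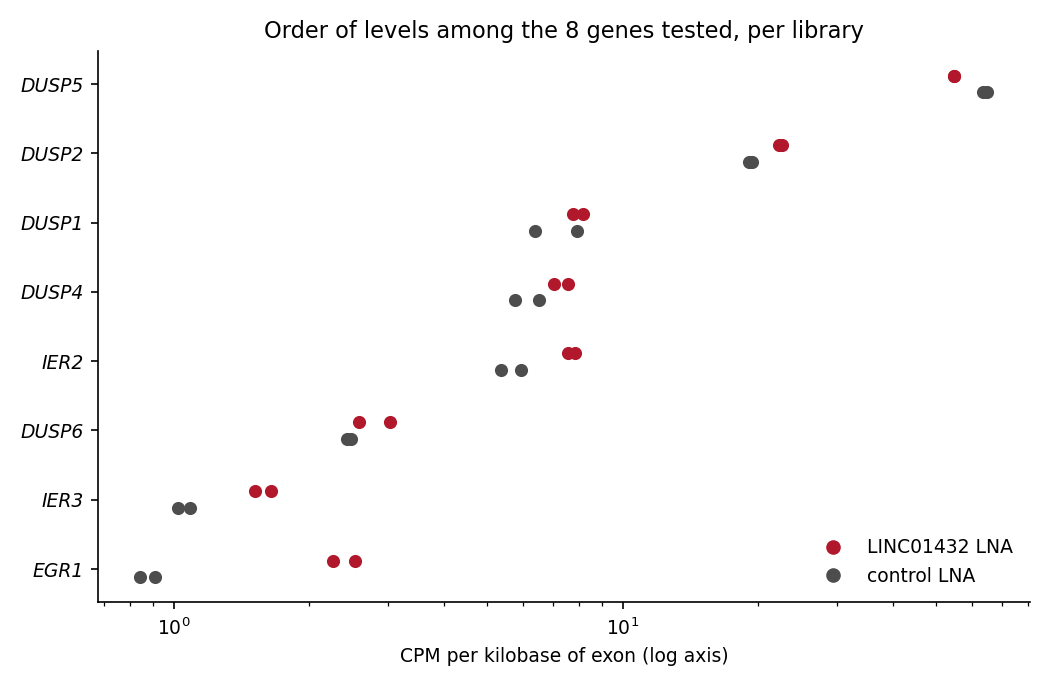
Level per kilobase of exon, on a log axis, of the 8 genes tested, 1 dot per library, LINC01432 LNA drawn above control LNA for each gene. DUSP5 is highest in every library, and EGR1 is the lowest gene with control LNA but lies above IER3 with LINC01432 LNA.

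The fold change of a gene in these libraries followed the GC content of its exons, which bears on several members. Genes were split into 10 equal bins of GC content, whose median log2 fold changes ran between -0.14 in the bin lowest in GC and 0.37 in the bin highest in GC. IER2 with 61.6% GC and DUSP2 with 63.6% lie in that highest bin. EGR1 with 55.4%, DUSP5 with 55.4% and DUSP1 with 55.1% lie in the bin between 54.3% and 57.6%, whose median was 0.06. After removing a trend of log2 CPM on GC content from each library, 12.6% of genes changed, with 4.37% higher and 8.22% lower. A trend fitted to the deviations from each gene's mean, added after the data were seen, gave 11.1% changed, with 5.34% higher and 5.76% lower. EGR1 kept a log2 fold change of 1.33 and 1.39 under the first and the second form (edgeR adjusted p = 0.000608 and 0.000618). IER2 had 0.13 and 0.19 and was not called (edgeR adjusted p = 0.347 and 0.168). DUSP5 had -0.36 and -0.30 and was called lower (edgeR adjusted p = 0.00696 and 0.0150). DUSP2 had -0.20 and -0.13, with the opposite sign to its uncorrected value, and did not pass (edgeR adjusted p = 0.116 and 0.313). DUSP1, DUSP4, DUSP6 and IER3 had 0.04, 0.17, 0.18 and 0.39 under the first form and did not pass under either. Each form thus called 1 of the 8 members higher, EGR1, and 1 lower, DUSP5. The median over the 8 members was 0.15 under the first form and 0.21 under the second. Over all genes tested it was -0.04 and -0.00066.

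**Figure D3:**
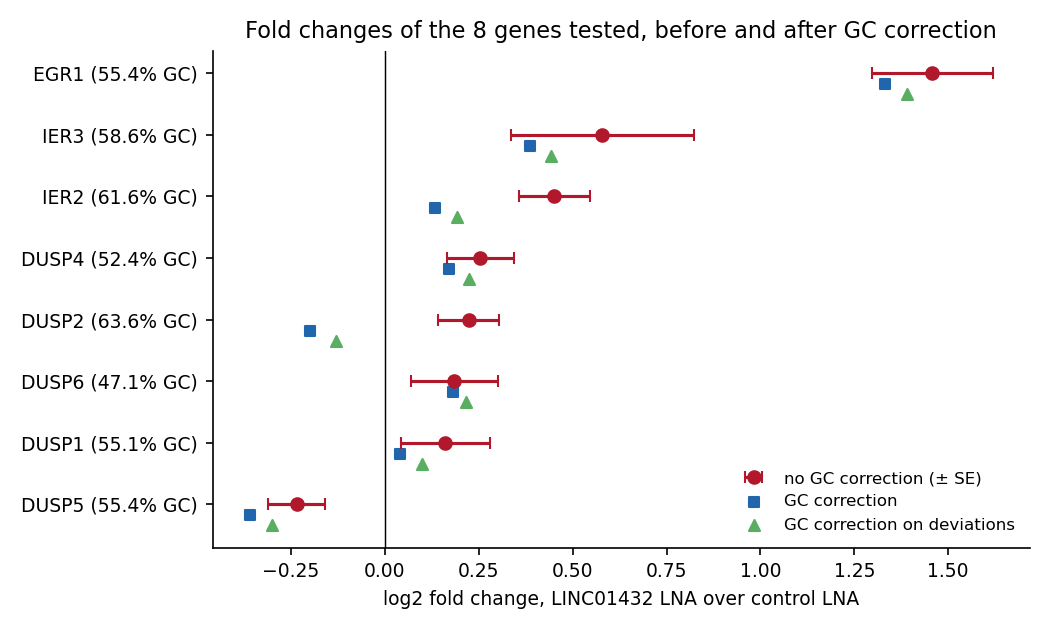
Log2 fold change of LINC01432 LNA over control LNA for the 8 genes tested, with its SE (circles) and after 2 corrections for GC content (squares and triangles); the GC content of the exons stands beside each gene. EGR1 lies between 1.33 and 1.46 under all 3 settings, IER2 is at 0.45 uncorrected and at 0.13 and 0.19 corrected, DUSP2 changes sign, and DUSP5 lies below 0 throughout.

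Other genes around the pathway were described from lists of names, by their counts and medians. Over all genes tested, 7.5% were higher and 4.37% lower in the main test. After the first GC correction these shares were 4.37% and 8.22%, after the second 5.34% and 5.76%. The median log2 fold change over all genes tested was 0.01 in the main test. Under the first and second GC correction it was -0.04 and -0.00066. With a library left out the number of all genes called moved strongly, as given above. Whether a change of a list's count between settings is particular to the list was not tested. Among relatives of the members in the same families, 15 of 17 passed the filter: 5 rose, 1 fell and 9 did not pass. The median log2 fold change of these relatives was 0.21, and 0.18 and 0.23 under the first and second GC correction. IER5L and IER5, relatives of IER2, rose 2.62-fold and 1.52-fold, IER5L to 10.4 ± 0.0501 CPM with LINC01432 LNA against 3.97 ± 0.374 CPM with control LNA, and IER5 to 71.3 ± 2.81 CPM against 47.0 ± 0.558 CPM (SD, n = 2). Both stayed called after either GC correction, IER5L with log2 fold changes of 0.89 and 0.96 against 1.39 uncorrected, although 39.2% of the exonic bases of IER5L overlap another gene. DUSP8, a phosphatase of p38 and JNK, rose 1.82-fold but was not called after either correction. DUSP16, a phosphatase of JNK, fell to 19.0 ± 0.547 CPM with LINC01432 LNA, against 26.3 ± 0.0710 CPM with control LNA (log2 fold change -0.47, edgeR adjusted p = 0.00559), and was not called without control library 1 (-0.48, edgeR adjusted p = 0.0663). Without control library 1, 3 of the relatives were higher and 0 lower, without control library 2, 3 and 1, and after the first GC correction 2 and 1.

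Of the other immediate early genes, 26 of 29 passed the filter: 15 rose, 1 fell and 10 did not pass, and the median log2 fold change was 0.47. JUNB, an AP-1 subunit, rose 2.19-fold to 60.2 ± 4.38 CPM with LINC01432 LNA, against 27.6 ± 1.28 CPM with control LNA. ATF3, a stress-induced factor of the same superfamily, rose 2.14-fold to 10.6 ± 0.0254 CPM, against 4.96 ± 0.0721 CPM. ZFP36L1 and ZFP36L2, proteins that promote the decay of short-lived mRNAs, rose 1.77-fold and 1.78-fold (SD, n = 2; edgeR adjusted p between 2.78e-05 and 0.000295 for these 4 genes). These 4 genes stayed called after both GC corrections, JUNB with log2 fold changes of 0.63 and 0.71 against 1.13 uncorrected. Under the corrections 12 and 13 of the list were higher and 2 and 2 lower, and the median of the list was 0.33 and 0.38. Without control library 1, 7 were higher and 0 lower, and without control library 2, 9 and 0. MYC, the most abundant gene of the list, was at 1053 ± 6.44 CPM with LINC01432 LNA and 992 ± 5.22 CPM with control LNA and did not pass (edgeR adjusted p = 0.577); it was singled out after its values were seen.

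Of 18 genes known as slower outputs of ERK, 14 were tested: 4 rose, 0 fell and 10 did not pass, and the median log2 fold change was 0.36. The LINC01432 LNA libraries lay above both controls for 9 of the 14 and overlapped them for 2. For 3 they lay below, ETV1 (-0.21), ETV5 (-0.06) and TRIB1 (-0.23), none of them called. Over all genes tested 28.2% lay above and 25.9% below. UPP1, which cleaves uridine, rose 1.59-fold and SPHK1, a sphingosine kinase, 1.77-fold. UPP1 stayed called after both GC corrections (0.60 and 0.66), and SPHK1 did not (0.33 and 0.40, edgeR adjusted p = 0.101 and 0.0548). The log2 fold change of SPHK1 was 0.83, with 1.01 without LINC01432 LNA library 1 and 0.56 without library 2. CCND1, encoding cyclin D1, and FOSL1, an AP-1 subunit, rose 1.23-fold and 1.41-fold (edgeR adjusted p = 0.0304 and 0.0373). Neither was called without control library 1 (0.26 and 0.31), nor CCND1 without control library 2 (0.31). FOSL1 was not called after either GC correction (0.27 and 0.33, edgeR adjusted p = 0.201 and 0.132). CCND1 was not called after the first (0.22, edgeR adjusted p = 0.0741) but was after the second (0.27, edgeR adjusted p = 0.0361). After the first GC correction 1 gene of the list was higher and 1 lower, after the second 2 and 0. The median of the list was 0.17 and 0.22 under these corrections. Without control library 1 the list had 2 higher and 0 lower.

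The genes of the cascade itself had a median log2 fold change of -0.17: among the 26, all of them tested, 4 fell, 1 rose and 21 did not pass. PTPN11, the phosphatase SHP2 that is needed for RAS activation, fell to 105 ± 9.47 CPM with LINC01432 LNA, against 166 ± 5.02 CPM with control LNA (SD, n = 2; log2 fold change -0.67, edgeR adjusted p = 0.000591). ARAF, a RAF kinase, had a log2 fold change of -0.46 (edgeR adjusted p = 0.00283) and was not called without control library 1 (-0.47) or 2 (-0.48). MAP2K2, which encodes MEK2, rose 1.47-fold, a log2 fold change of 0.56. It was not called after either GC correction, where it had 0.14 and 0.21, nor without control library 1 or 2, where it had 0.54 and 0.55 (edgeR adjusted p = 0.0768 and 0.0627). Both GC corrections gave 0 higher and 6 lower, with medians of -0.16 and -0.12. Leaving out 1 library changed the count, to 2 higher and 12 lower without LINC01432 LNA library 1, 1 and 8 without LINC01432 LNA library 2, and 0 and 1 without either control library.

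Of 18 effector kinases and transcription factors downstream of ERK, 5 rose, 1 fell and 12 did not pass, and the median log2 fold change was 0.04. ERF, a repressor of ETS sites that ERK inactivates, rose 1.64-fold and stayed called after both GC corrections (0.27 and 0.34). CIC, another repressor controlled by ERK, and the kinase genes RPS6KA4 and MKNK2 were called higher (log2 fold changes 0.44, 0.46 and 0.39), but not after either GC correction, which gave -0.20, -0.02 and -0.03 in the first form, nor without control library 1 (0.40, 0.41 and 0.35) or 2 (0.46, 0.49 and 0.40). After the 2 corrections 1 and 1 of the list were higher and 3 and 2 lower, with medians of -0.08 and -0.03. Without either control library 1 gene was higher and 0 lower, without LINC01432 LNA library 1 and 2 the counts were 7 and 5, and 5 and 4. SRF, the serum response factor that binds CArG boxes, was at 64.2 ± 2.54 CPM with LINC01432 LNA and 56.3 ± 0.00188 CPM with control LNA and did not pass (edgeR adjusted p = 0.158); it was singled out for the motif above after its values were seen.

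**Figure D4:**
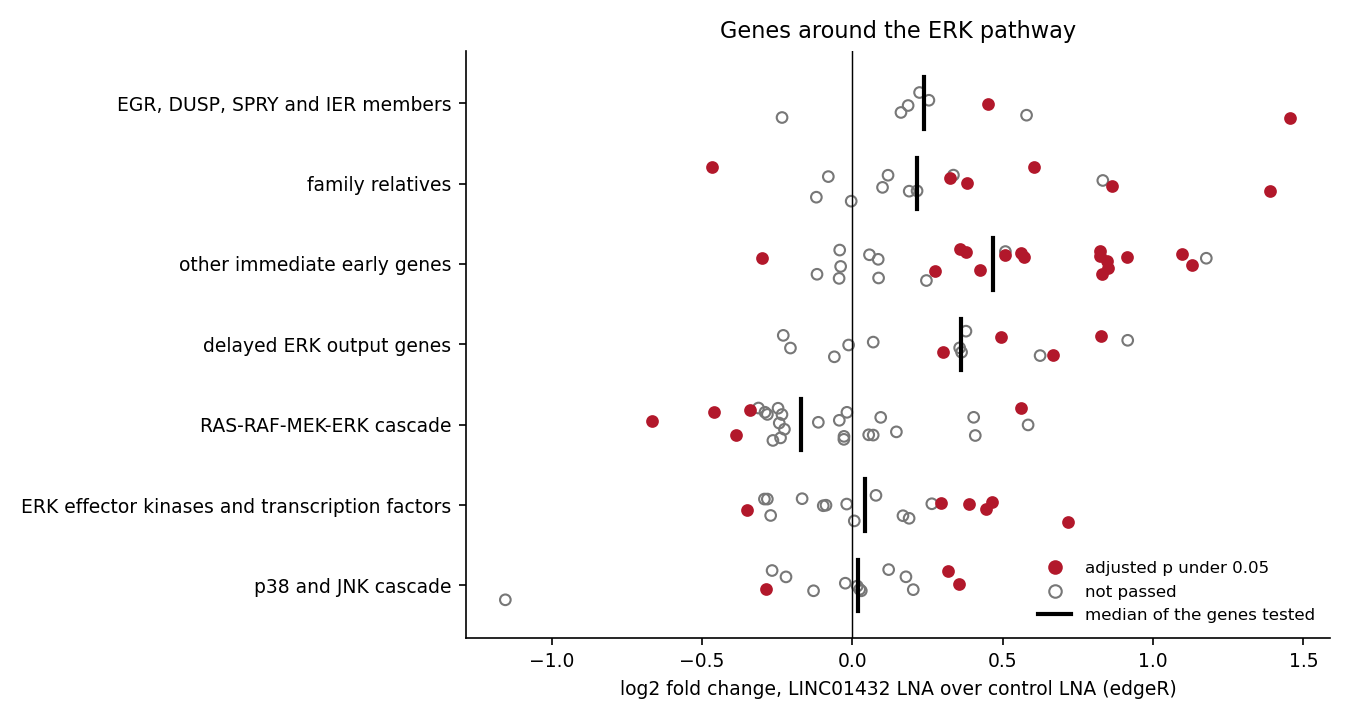
Log2 fold change of LINC01432 LNA over control LNA for the genes tested in each list, 1 circle per gene, filled where the edgeR adjusted p was under 0.05, with black lines at the medians. The medians, without GC correction, are 0.24 for the EGR, DUSP, SPRY and IER genes, 0.47 for the other immediate early genes and -0.17 for the cascade. Over all genes tested the median was 0.01. After the first GC correction these medians were, in the same order, 0.15, 0.33 and -0.16, against -0.04 over all genes tested. After the second they were 0.21, 0.38 and -0.12, against -0.00066.

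Of 14 genes of the p38 and JNK cascades tested, whose kinases several DUSP proteins also act on, 2 rose, 1 fell and 11 did not pass. The median log2 fold change was 0.02, and -0.10 and -0.07 under the first and second GC correction. MAP2K7 and MAPK12, a kinase of JNK and a form of p38, had log2 fold changes of 0.36 and 0.32, and MAPK13, another form of p38, had -0.29 (edgeR adjusted p = 0.0184, 0.0262 and 0.0363). None of the 3 was called without control library 1 or 2 (0.31, 0.30 and -0.31, and 0.37, 0.31 and -0.29), and of MAPK12 29.3% of the exonic bases overlap another gene. After the first GC correction MAP2K7 and MAPK12 had -0.0026 and -0.24, MAPK12 then being called lower, and the list had 0 higher and 3 lower genes, after the second 0 and 1. Without either control library 0 were higher and 0 lower (edgeR), without LINC01432 LNA library 1, 3 and 3, and without library 2, 2 and 2.

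The genes whose profile lay nearest to that of the members were sought by Euclidean distance over the 4 libraries, between the centred log2 CPM of 10175 genes of at least 5 CPM and the median centred log2 CPM of the 8 members tested. RAI1, ELK1, HGF and ALDH5A1 were nearest, at distances of 0.00620, 0.0134, 0.0170 and 0.0177. Their log2 fold changes lay between 0.29 and 0.32, which the choice by distance to the members' median profile fixes. RAI1, ELK1 and HGF were called (edgeR adjusted p = 0.0298, 0.0335 and 0.0367) and ALDH5A1 was not (edgeR adjusted p = 0.0930), and none was called without control library 1 or without control library 2. After the 2 GC corrections RAI1 had 0.02 and 0.07 and ELK1 0.16 and 0.22, neither called (edgeR adjusted p = 0.926, 0.565, 0.183 and 0.0721), while HGF had 0.42 and 0.44 and was called.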

How the data were processed

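RNA-seq covered 4 libraries of RPMI 8226 cells, grouped by title. The authors deposited raw counts, whole numbers for each gene in 1 column per library. The submitters' processing notes name bcl2fastq, STAR 2.7.11b, featureCounts 2.0.8 of Subread and Salmon 1.10.0 with GRCh38, without role or order. Neither the annotation release nor the strand setting is given in the sources used here. The design text names poly(A) selection and the labels' protocol removal of ribosomal RNA. The 92 rows of spike-in RNAs and 5 of transgenes, each at most 3.44e-05% of a library, were left out. Gene symbols were matched by Ensembl ID (61481 matched), and exon lengths, GC content and exon overlap from GENCODE 29 (57356 matched).

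The main test was the edgeR 4.0.16 quasi-likelihood test in R 4.3.3 with TMM scaling, filterByExpr (minimum count 10, minimum total 15), group as the only term and Benjamini-Hochberg adjustment over all genes tested, called at 0.05. Standard errors were derived from its F statistic. CPM used TMM-scaled library sizes. The edgeR step and the first GC correction were run on simulated data, the GC form on deviations was not. The simulation gave all genes and both groups the same spread, whereas the observed spread differed between the groups. GC corrections were lowess trends (span 0.3) used as offsets. Alternatives were median of ratios scaling, library totals only, no filter, a minimum count of 30, the DESeq2 1.42.0 Wald test, limma-voom (limma 3.58.1), a threshold of 0.01, each library left out and the replicate number as a block. Named from each pathway list were up to 4 called genes with the smallest p. Some genes that this rule names are not reported here. The members and lists were chosen with earlier results of these data known. Promoters are from RefSeq (GRCh38.p14), with 7 of 10 members matched. Counting error sets a floor of 3 counts. Figures were drawn with matplotlib 3.10.9.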

Additional observations from a re-analysis of the deposited data

How the results depend on the processing

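EGR1 kept its direction and its call under all 15 alternatives (log2 fold change 1.33 to 1.52). IER2 was not called at a threshold of 0.01, without control library 1 or under the 3 GC corrections, and kept its direction. Members called numbered 2, with 1 at a threshold of 0.01, 5 with the replicate block and 1 to 4 with a library left out. All genes called numbered 2218, with 1000 at 0.01, 3862 with the replicate block, 3809 with GC correction and the replicate block, and 766 to 5228 with a library left out. The share of called genes that were higher was 63.2%, against 34.7% after GC correction, 35.0% with the block as well, and 48.1% with the form on deviations. Other pathway genes called numbered 40, with 22 at 0.01 and 14 to 63 with a library left out. The GC corrections leave out genes without an annotated GC content. LINC01432 kept its call throughout. Signs reversed after GC correction: with the replicate block DUSP2 had -0.20 and was called lower (edgeR adjusted p = 0.0499). For the form without and with the block, CIC had -0.20 and -0.20, RPS6KA4 -0.016 and -0.016, MKNK2 -0.033 and -0.033, MAP2K7 -0.0026 and -0.0032 and MAPK12 -0.24 and -0.24. In the form on deviations CIC had -0.10 and MAPK12 -0.16. The cause was not tested. Deviations of same-numbered libraries correlated at 0.16 over 18680 genes. The labels do not say that a number marks a shared culture or batch, so whether the replicate block pairs the libraries is unknown. With the block, DUSP2, DUSP4 and DUSP5 were also called (0.22, 0.25 and -0.23). EGR2 and SPRY2 were tested without the filter on low counts only, where all 10 members were tested and neither was called.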
